A study of Mus musculus with 30 samples.

Results

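Batch P19 is the label carried by 5 of the 20 libraries of sequencing run 3, 1 in each of its 5 conditions. The other 15 libraries of that run are labelled P16, P17 or P18, again 1 library in each condition. The batch was chosen by its high levels of mitosis genes in run 3, which earlier work on these libraries had shown, so the difference in run 3 is given here as a description, with no test. The batch label P19 occurs again in run 2, in 1 library of each of its 2 plasmid groups, and those 2 libraries were compared with the 4 P17 and P18 libraries of the same groups by a test. The series holds 30 libraries in all. The labels do not say what the letter P stands for, whether P19 of both runs was 1 culture, or whether same-numbered libraries of different conditions were separate cultures. Each p-value below therefore measures the spread between libraries of 1 P19 batch and the others, not the spread between batches.

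The libraries were made from cultured mouse aortic smooth muscle cells, kept without serum for 48 h and transfected for at least 24 h. The protocol text speaks of mouse and rat cells alike. In run 3, 12 libraries came from cells with the knockdown control, left untreated, treated with angiotensin II at 10 ng/ml or treated with PDGF-BB at 10 to 30 ng/ml for 24 h. The other 8 came from cells with a knockdown of long CASC15, a long noncoding RNA, untreated or with angiotensin II. The protocols name GapmeRs, which are antisense oligonucleotides that recruit RNase H, and siRNA, and do not say which libraries had which. In run 2, untreated cells carried the overexpression control plasmid or the plasmid for total CASC15, 3 libraries each, and 4 knockdown and knockdown control libraries without a P19 member added to the estimate of the spread. In the labels of the long knockdown and of the CASC15 plasmid the number behind CASC counts up from library to library, so that the P19 libraries read CASC18, CASC22 and CASC17. The library names keep 1 name per group, which was followed here. 2610307P16Rik, read here as mouse Casc15, was lower with the long knockdown than in the control by log2 differences of -1.17 in P16, -0.93 in P17, -0.75 in P18 and -0.59 in P19. This count pools all transcripts of the gene and does not measure the long form alone.

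Total counts ran from 16669840 to 30362047 in the P19 libraries of run 3 and from 15771490 to 23757614 in the others, and from 18007199 to 19887395 and 18045203 to 21715437 in run 2. The share of counts from the mitochondrial genome was 1.73% to 2.65% in the P19 libraries of run 3 against 2.59% to 3.33% in the others. Its part in the results was not tested. On the first principal component of run 3, which held 29.0% of the variance after condition means were removed, the P19 libraries lay between 30.7 and 46.0 and the others between -19.3 and -7.67. Of the defining smooth muscle markers, Acta2 stood at 96.5 to 268 CPM in the P19 libraries of run 3, whereas Cnn1, Myh11 and Tagln were at most 0.0997, 0.448 and 0.897 CPM there. In P16 to P18 the highest values of these 3 markers were 0.205, 1.36 and 2.06 CPM. Cdh5, Cldn5 and Emcn of endothelium and Ptprc, Adgre1, C1qa, Aif1 and Cd3e of leukocytes had at most 3 counts in every library of both runs. The other 5 endothelial and 3 leukocyte markers did not: the summed levels of the lists were 2.55 to 4.44 and 9.68 to 14.8 CPM in the P19 libraries of run 3 against 3.02 to 5.14 and 9.56 to 15.4 CPM in the others. Most of the leukocyte sum was Cd14, at 7.85 to 21.2 CPM over all libraries.

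Cells in division switch on genes in waves. Replication licensing factors and the nucleotide-making enzymes come first, and the cyclins, kinesins and kinetochore proteins of mitosis follow, many of them from promoters with CCAAT boxes and with the cell cycle homology region known as CHR. Cholesterol is made from acetyl-CoA through mevalonate, squalene and lanosterol, and nearly every enzyme of the route is under the transcription factor SREBP2, which is released when the membranes of the endoplasmic reticulum are short of sterol. SREBP2 binds sterol elements, often beside CCAAT boxes bound by NF-Y, and dividing cells need the sterol for new membrane.

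The promoters below are shown because 35 of 35 genes of the sterol and fatty acid list and 72 of 75 of the mitosis list were higher in P19 of run 3. They run 5′ to 3′ on the strand of the gene, from RefSeq on build GRCm38.p6, and end 1 base before the first start site listed. Capitals mark CCAAT, read from either strand. In Cdc20 they also mark the CHR letters, TTTGAA. In Hmgcs1 they also mark a sterol element, TCACNCCAC. Hmgcs1 makes HMG-CoA for the mevalonate route, Idi1 makes dimethylallyl diphosphate, Mvd makes isopentenyl diphosphate, and Hsd17b7 is a sterol ketoreductase. Cdc20 activates the anaphase-promoting complex and Ccnb1 is cyclin B1.
Hmgcs1, chr13:119690201-119690350, plus strand: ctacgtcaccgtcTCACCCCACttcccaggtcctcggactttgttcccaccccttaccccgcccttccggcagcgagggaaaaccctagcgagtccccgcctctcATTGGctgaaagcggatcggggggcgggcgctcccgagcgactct
Idi1, chr13:8885506-8885605, plus strand: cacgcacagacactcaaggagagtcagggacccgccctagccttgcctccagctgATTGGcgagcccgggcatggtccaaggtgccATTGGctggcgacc
Mvd, chr8:122443423-122443522, minus strand: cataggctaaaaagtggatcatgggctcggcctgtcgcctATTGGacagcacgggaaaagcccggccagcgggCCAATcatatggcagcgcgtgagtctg
Hsd17b7, chr1:169969206-169969305, minus strand: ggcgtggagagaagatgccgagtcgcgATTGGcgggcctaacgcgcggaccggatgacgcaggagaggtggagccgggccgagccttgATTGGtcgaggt
Cdc20, chr4:118437344-118437443, minus strand: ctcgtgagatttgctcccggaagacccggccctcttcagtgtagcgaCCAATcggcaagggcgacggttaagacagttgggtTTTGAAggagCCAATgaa
Ccnb1, chr13:100786487-100786586, minus strand: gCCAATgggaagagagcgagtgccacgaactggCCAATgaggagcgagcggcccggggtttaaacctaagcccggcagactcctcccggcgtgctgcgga

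The motifs were searched on both strands in the 250 bases before the start of every gene in the promoter table. CCAAT occurred in 18 of the 25 sterol and fatty acid synthesis genes found there (72%), in 40 of 60 mitosis genes (66.7%) and in 34.5% of 27025 promoters. The CHR letters occurred in 33.3% of the mitosis genes and in 8% of the sterol genes. They were found in 16.3% of all promoters and in 10.6% of those of genes tested in run 3. Among genes called higher in P19 in both runs, described further on with the libraries their number rests on, 46.5% of 719 promoters held CCAAT. The share was 35.3% of 431 promoters of genes called lower in both and 36.7% for all genes tested in run 3. The genes called higher in both include 68 mitosis, 42 replication and 26 sterol genes, some without a promoter in the table. The 46.5% thus counts many of the promoters above again. The sterol element as spelled was found in 1 of the 25 sterol genes, Hmgcs1, and in 1.04% of all promoters. A match is a description of the letters and not a bound site, and in the promoters printed the marked motifs do not overlap.

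With all 5 conditions in 1 fit, 6915 of 15103 genes (45.8%) were called in run 3, which means an adjusted p under 0.05 in edgeR's quasi-likelihood fit, with 3571 (23.6%) higher in P19 and 3344 (22.1%) lower. These calls select and count genes and carry no test of the batch. Of the 6915, 579 differed by at least 2-fold. When P16, P17 or P18 was set against the other batches in the same way, 0 genes were called for any of them, with 1541, 506 and 1302 genes at an unadjusted p under 0.05. Without the P19 libraries, which widen the spread of those comparisons, 118 genes were called for P16, 0 for P17 and 173 for P18.

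In run 2, where P19 was not used to set the batch apart, 2688 of 15350 genes passed the test at an adjusted p under 0.05 (17.5%; the quasi-likelihood test of edgeR, adjusted by Benjamini and Hochberg). P19 was higher for 1524 of them (9.93%) and lower for 1164 (7.58%). This number rests on both P19 libraries: 462 genes passed without the P19 library of the control plasmid and 906 without that of the CASC15 plasmid. Of the 6713 genes called in run 3 and tested in both runs, 75.99% differed in the same direction in run 2 and 1510 were called there in the same direction, against 143 in the opposite one. These 1510 were 22.49% of the genes called in run 3, 58.5% of the 2581 called in run 2 and 10.6% of the 14185 tested in both. The 1510 became 301 without the P19 library of the control plasmid and 642 without that of the CASC15 plasmid. Outside the cell cycle lists the shares were alike, with 75.28% of 6513 genes in the same direction and 1328 called in both. Of the 7472 genes not called in run 3, 58.04% had the same sign in run 2.

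**Figure D1:**
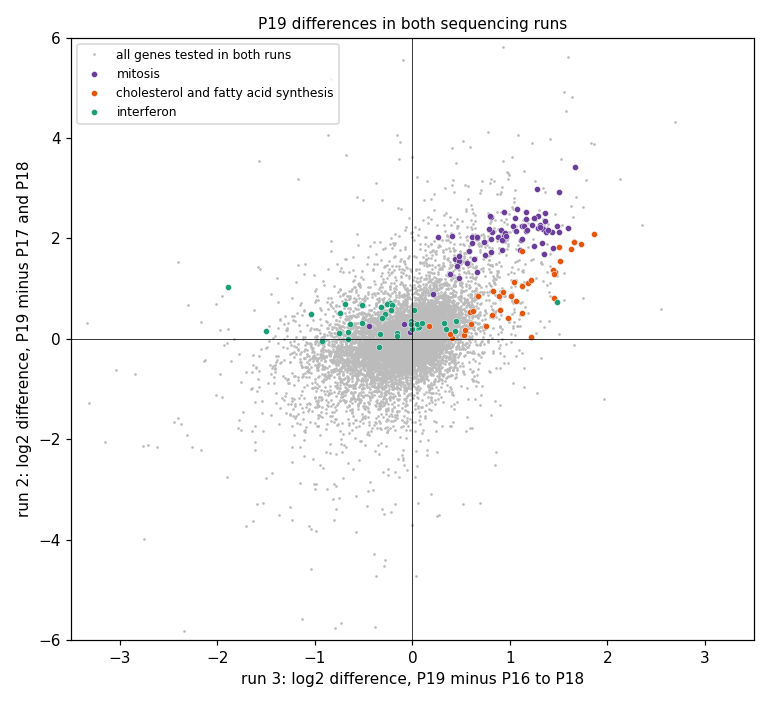
Log2 difference of P19 from the other batches in run 3 (x axis, 5 against 15 libraries) and in run 2 (y axis, 2 against 4 libraries of the plasmid groups), 1 point per gene for 14185 genes, of which 15 lie outside the axes. Mitosis genes (purple) and sterol and fatty acid synthesis genes (orange) lie to the upper right of 0 with few exceptions, whereas interferon genes (green) lie mostly to the left of 0 in run 3 and near or above 0 in run 2.

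Mitosis genes were the measure by which P19 was picked, and 68 of the 75 on the list were called higher and 1 lower in run 3, with a median log2 difference of 0.96 against -0.00 over all genes tested. In limma, with the batch as a random block, 41 were called higher, and the median was 0.44. The correlation within batches was estimated at 0.0012 there, so the block itself changed little. The cause of the smaller count was not tested. Mki67, the proliferation marker Ki-67, stood at 22.3, 14.5 and 24.1 CPM in P16, P17 and P18 of the untreated control and at 48.8 CPM in P19. With the long knockdown its levels were 1.68, 3.56 and 3.48 CPM in P16, P17 and P18 and 31.5 CPM in P19. Under PDGF-BB, a mitogen, Mki67 stood at 391, 376 and 387 CPM in P16 to P18 and at 353 CPM in P19. P19 thus lay above the other libraries of its condition without PDGF-BB and below them with it. Over the list, P19 was above every other library of its condition for 70 to 72 of 75 genes in the 4 conditions without PDGF-BB and for 32 genes under PDGF-BB, where it was below them all for 22. Over all genes tested, P19 was above every other library for 33.7%, 33.7%, 37.3%, 36.1% and 35.0% in the untreated control, angiotensin II, PDGF-BB, knockdown, and knockdown with angiotensin II. It was below them all for 34.5%, 35.4%, 34.2%, 36.3% and 34.7%.

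In run 2 all 75 mitosis genes were higher in P19 and 72 passed the test, with a median log2 difference of 2.06. Ccnb1, cyclin B1, stood at 8.197 and 6.603 CPM in P17 and P18 of the control plasmid and at 42.1 CPM in P19, and at 14.2, 17.8 and 54.2 CPM with the CASC15 plasmid. It was 4.39-fold higher in P19 (log2 2.13, SE 0.21, adjusted p = 0.0002 by edgeR's quasi-likelihood test). Plk1, a mitotic kinase, was 5.43-fold higher (adjusted p = 0.00015) and Shcbp1, a midbody protein, 10.7-fold (adjusted p = 0.00084, edgeR's quasi-likelihood test). DNA replication genes went the same way, with 46 of 60 called higher and 0 lower in run 3 and 52 of 60 higher and 0 lower in run 2, where 23.6% and 9.93% of all genes were called higher in turn. Mcm5, a subunit of the replicative helicase, was at 7.43, 6.39 and 9.08 CPM in the untreated control and 18.2 CPM in P19, and in run 2 at 8.60 and 11.1 against 54.1 CPM with the control plasmid and 15.1 and 21.9 against 89.4 CPM with the CASC15 plasmid. Under PDGF-BB 51 of 60 replication genes were highest in P19, and Cdc6, which loads that helicase, stood at 42.0, 38.5 and 45.2 CPM in P16 to P18 and at 62.2 CPM in P19. Without the control plasmid P19 library, 48 mitosis and 19 replication genes passed in run 2, and Mki67 and Cdc6 did not (adjusted p = 0.14 and 0.079, edgeR's quasi-likelihood test). Both also missed the threshold without the CASC15 plasmid P19 library (adjusted p = 0.075 and 0.051).

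**Figure D2:**
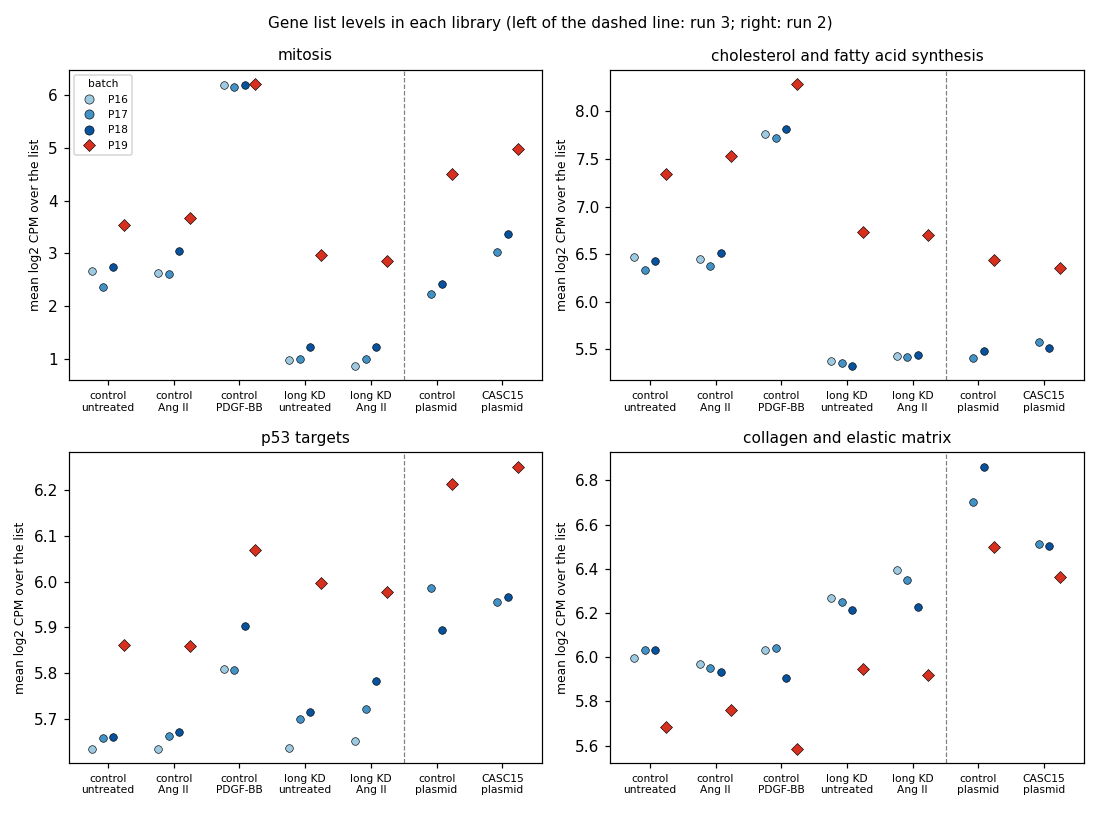
Mean log2 CPM over the genes of 4 lists in each library, by condition, with P16 to P18 as blue circles and P19 as red diamonds; run 3 lies left of the dashed line and run 2 right of it, with 1 library per point. P19 is the highest library of its condition for sterol and fatty acid synthesis and for p53 targets, and for mitosis, where under PDGF-BB it stands 0.04 above the mean of the others. It is the lowest for collagen and elastic matrix.

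Beyond the cell cycle, cholesterol and fatty acid synthesis set P19 apart. All 35 tested genes of that list were called higher in run 3, with a median log2 difference of 1.05, and 26 of 35 passed the test in run 2 with 0 lower and a median of 0.85. Of the 12 called genes with the largest increase in run 3, taken outside the cell cycle lists among genes with a mean of at least 5 CPM that were highest in P19 in 4 or more conditions, 10 belonged to it. Of the 10 largest increases called in both runs by the same rule, 8 did. These 10 were picked by their run 2 values too, so this count is no check by run 2. Members were highest in P19 for 34, 35, 34, 35 and 35 of 35 genes in the 5 conditions of run 3 and for 31 and 32 of 35 in the control and CASC15 plasmid groups of run 2. Over all genes tested in run 2 P19 was highest for 39.2% and 37.9% and lowest for 38.4% and 37.7%. Under PDGF-BB the list's median log2 ratio of P19 to the others was 0.52, against 0.02 for the mitosis list. Whether the lists differ was not tested.

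Idi1, the isomerase of the route, whose promoter is shown above, had the largest difference. In the untreated control it stood at 162, 128 and 141 CPM in P16, P17 and P18 and at 411 CPM in P19. With angiotensin II the values were 155, 152 and 168 against 454 CPM, and under PDGF-BB 572, 548 and 627 against 1118 CPM. P19 was above every other library in these conditions, by 1.92-fold to 2.87-fold over their mean. With the long knockdown the gap was wider, at 39.7, 35.5 and 35.0 against 232 CPM untreated and 38.2, 33.4 and 42.5 against 213 CPM with angiotensin II. In run 2 Idi1 stood at 23.5 and 24.0 CPM in the control plasmid libraries of P17 and P18 and at 121 CPM in P19, and at 28.2 and 29.9 against 102 CPM with the CASC15 plasmid. The groups did not overlap, and Idi1 was 4.26-fold higher in P19 (log2 2.09, SE 0.13, adjusted p = 1.9e-05 by edgeR's quasi-likelihood test).

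Several other enzymes of the route were higher as well. Hmgcs1, a synthase early in the route, was 2.32-fold higher in P19 of run 3 and 2.24-fold higher in that of run 2, where edgeR's quasi-likelihood test gave an adjusted p of 0.0023. Fdps, which makes farnesyl diphosphate, stood at 21.5 and 22.6 CPM in the control plasmid libraries and at 104 CPM in P19, and at 30.5 and 31.3 against 93.7 CPM with the CASC15 plasmid (3.81-fold, adjusted p = 7.44e-05). The later enzymes Cyp51 and Msmo1, both lanosterol demethylation enzymes, were 3.46-fold and 3.73-fold higher in run 2 (adjusted p = 9.06e-05 and 0.00015, edgeR's quasi-likelihood test). Mvd was 2.93-fold higher, Sqle, squalene epoxidase, 2.53-fold, and Acat2, an acetoacetyl-CoA thiolase, 2.59-fold (adjusted p = 0.0016, 0.002 and 0.00053, edgeR's quasi-likelihood test). Each of these genes was highest in P19 in all 5 conditions of run 3 and in both plasmid groups. Over all genes tested in run 3 P19 was highest in all 5 conditions for 11.7%, but most of these genes were named by a rule that asked for 4 or more such conditions, so their count is not read against it.

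Control genes of the pathway rose in run 2 as well. Insig1, which holds SREBP in the endoplasmic reticulum and is itself an SREBP target, was 1.70-fold higher and Srebf2, the gene of SREBP2, 1.80-fold (adjusted p = 0.0012 and 0.00088). Mylip, an E3 ligase induced by the sterol sensor LXR, fell in run 2 (log2 -1.56, SE 0.22, adjusted p = 0.0014 by edgeR's quasi-likelihood test) but was called neither way in run 3, where it differed by log2 -0.51 (SE 0.21). Fasn, fatty acid synthase, was called higher in run 3 at 1.31-fold. In run 2 it stood at 384 and 325 against 302 CPM and at 258 and 283 against 361 CPM (adjusted p = 0.67), so that P19 was lowest in 1 plasmid group and highest in the other. Scd1, which desaturates stearate, was 1.98-fold higher in run 3 and 1.34-fold in run 2 (adjusted p = 0.018).

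**Figure D3:**
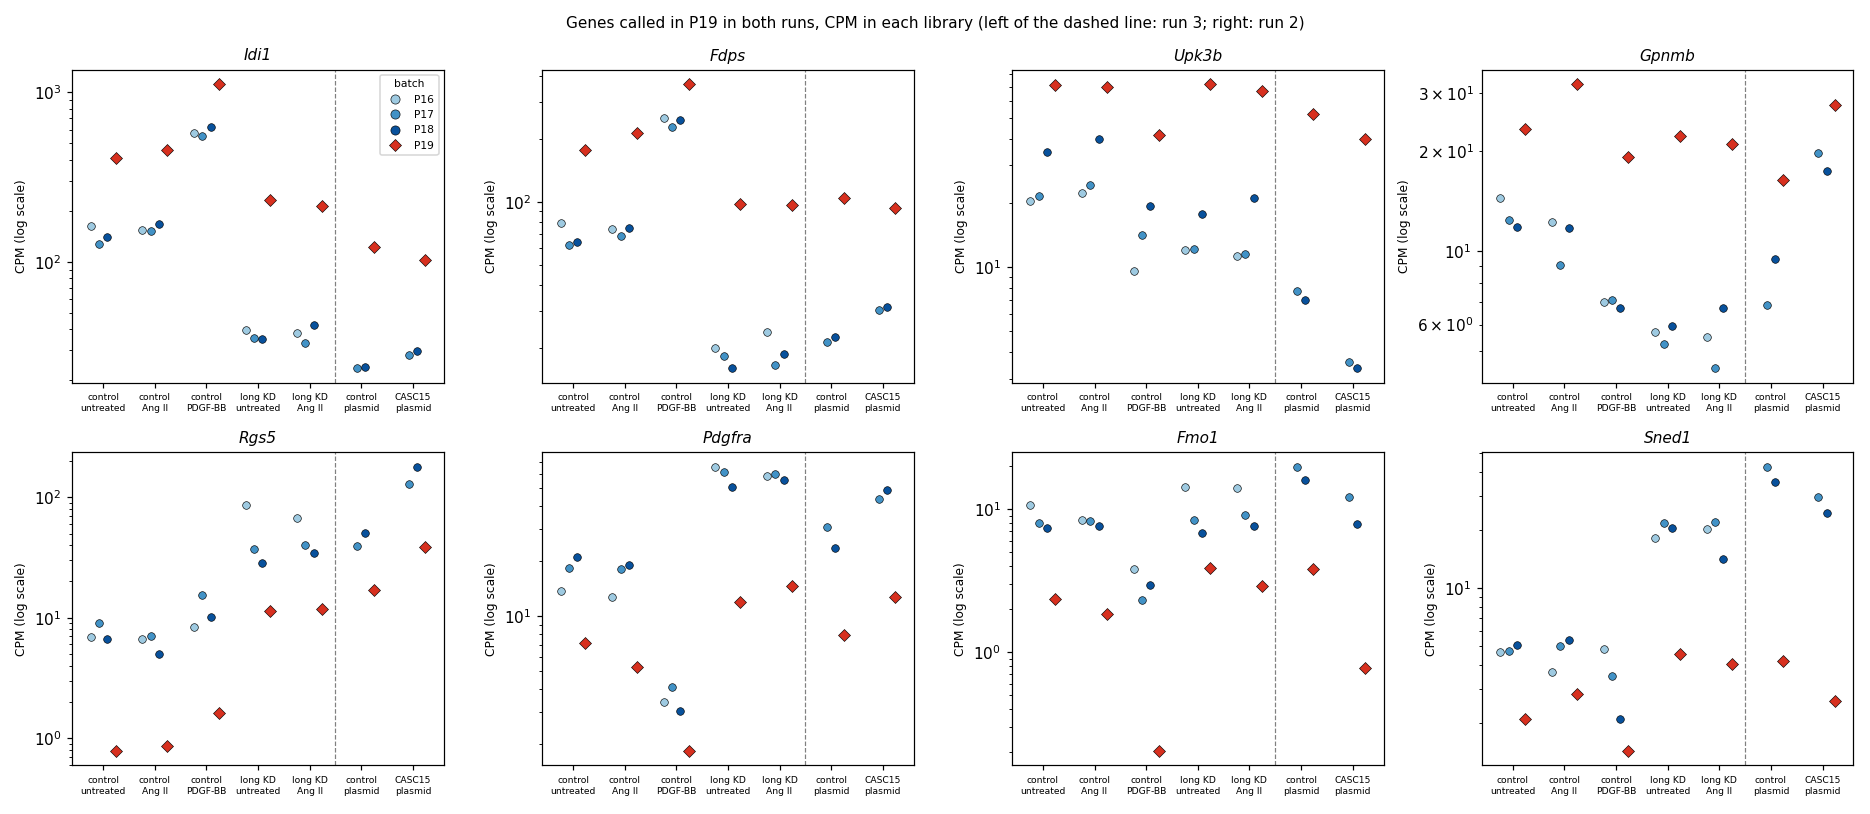
CPM on a log axis for 8 genes in every library of run 3 (left of the dashed line) and of the plasmid groups of run 2 (right), with P16 to P18 as blue circles and P19 as red diamonds. P19 is the highest library of its condition for Idi1, Fdps, Upk3b and Gpnmb and the lowest for Rgs5, Pdgfra, Fmo1 and Sned1.

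The level of mitosis genes moved with P19 too, so the run 3 fit was repeated with each library's mean over the mitosis list as a covariate. The sterol and fatty acid list then had a median of 0.63, against 1.05 without the covariate. Of its 35 genes 31 were called higher and 0 lower, beside 1644 higher and 1697 lower of 15103 genes. Of these 3341 calls in all, 2814 were as before. The covariate is the measure by which P19 was picked. P19 exceeded the mean of the others on it by 0.905 to 1.90 in the conditions without PDGF-BB and by 0.04 with it. The fit thus rests largely on how this gap changed between conditions. Whether the sterol and mitosis differences are separate in run 3 was not tested. Idi1 had a log2 difference of 0.87 in that fit, smaller than without the covariate, and Srebf2 one of 0.04. In run 2 the same covariate ran so closely with P19 that 37 genes were called and 0 of the sterol list, with a median of 1.45, and the sterol and mitosis differences cannot be told apart there. Without the control plasmid P19 library, 12 of the sterol genes passed in run 2, among them Idi1, Fdps, Cyp51 and Msmo1. The calls of Mvd, Sqle, Hmgcs1, Nsdhl and Scd1 were lost, with adjusted p from 0.065 for Mvd to 0.39 for Scd1 (edgeR's quasi-likelihood test). In bulk RNA more cells of 1 kind and more RNA per cell cannot be told apart.

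Upk3b, a uroplakin made by mesothelium, the lining of body cavities, was higher in P19 of both runs. It was with Gpnmb 1 of the 2 genes outside sterol synthesis among the 12 largest increases of run 3. No mesothelial list was tested: Upk1b, Lrrn4, Msln and Wt1 were added after its values were seen, as were the keratins and Cdh1 given after them. Upk3b stood at 20.4, 21.4 and 34.5 CPM in the untreated control and at 70.9 CPM in P19, and at 7.75 and 7.04 against 52.1 CPM with the control plasmid and 3.59 and 3.35 against 39.9 CPM with the CASC15 plasmid. P18 was the second highest library in all 5 conditions of run 3. In run 2 Upk3b was 8.93-fold higher in P19 (log2 3.16, SE 0.16, adjusted p = 8.9e-06 by edgeR's quasi-likelihood test). Upk1b, another uroplakin, was 8.90-fold higher, Lrrn4, a leucine-rich repeat membrane protein, 14.7-fold, Msln, the surface protein mesothelin, 4.22-fold, and Wt1, a zinc finger transcription factor, 3.90-fold (adjusted p = 1.57e-05, 9.8e-06, 1.9e-05 and 0.00058). All 5 were highest in P19 in every condition of run 3, and each passed in run 2 with either P19 library left out. Krt19 was also highest in P19 in all 5 conditions and both plasmid groups, at 181, 161 and 179 against 229 CPM in the untreated control. Krt8 went the other way in the control conditions, at 2.10, 4.22 and 4.44 against 0.948 CPM untreated, and was lowest in P19 in all 3 of them. Cdh1, E-cadherin, was lowest in P19 in the 3 control conditions and both plasmid groups and highest in the 2 knockdown conditions. Krt7 and Krt18 were at most 1.23 and 0.505 CPM in run 3. Of the epithelial markers, the summed level was 64.5 to 157 CPM in the P19 libraries of run 3 against 35.4 to 199 CPM in the others, and 44.6 to 66.4 against 46.3 to 150 CPM in run 2, with Krt5 at 3 counts or fewer throughout. The epithelial ranges overlapped. The summed chondrocyte markers, mostly Sox9, stood at 55.7 to 107 CPM in the P19 libraries of run 3 against 65.8 to 144 CPM in the others. In run 2 they stood lower in P19 without overlap, at 69.8 to 96.3 against 127 to 201 CPM. Whether cells of another kind had a part in these differences was not tested.

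Over all genes 23.6% were called higher and 22.1% lower in run 3 and 9.93% and 7.58% in run 2. Of the ATF4 and amino acid response list 13 of 21 genes were called higher and 1 lower in run 3 and 15 of 22 higher and 0 lower in run 2, where the median was 0.64. Asns, asparagine synthetase, stood at 17.4 and 20.6 against 64.1 CPM with the control plasmid and at 36.7 and 40.3 against 86.3 CPM with the CASC15 plasmid (2.76-fold, adjusted p = 0.00073, edgeR's quasi-likelihood test). Aldh1l2 and Mthfd2, mitochondrial folate enzymes, were 2.54-fold and 2.13-fold higher (adjusted p = 0.0049 and 0.004). Without the control plasmid P19 library 2 genes of the list passed, and Aldh1l2 and Mthfd2 did not (adjusted p = 0.17 and 0.14, edgeR's quasi-likelihood test). Ccnd1, cyclin D1, was 2.50-fold higher in run 3 and 2.84-fold in run 2 (adjusted p = 0.034, edgeR's quasi-likelihood test), and missed it without the P19 library of the control plasmid (adjusted p = 0.33) or of the CASC15 plasmid (adjusted p = 0.12).

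Of the 28 p53 targets, 20 were called higher and 3 lower in run 3 and 12 higher and 2 lower in run 2. The shares over all genes were 23.6% and 22.1% in run 3 and 9.93% and 7.58% in run 2, so the lower calls of run 2 were near the background. Cdkn1a, the inhibitor p21 that halts the cell cycle, stood at 140, 149 and 156 against 180 CPM in the untreated control and at 140, 135 and 155 against 219 CPM with the long knockdown. In run 2 it stood at 178 and 158 against 226 CPM and at 172 and 165 against 251 CPM (1.42-fold, adjusted p = 0.017, edgeR's quasi-likelihood test). P19 was the highest library for Cdkn1a in all 5 conditions of run 3 and in both plasmid groups. Pmaip1, the BH3-only protein NOXA, was 1.82-fold higher in run 2 (adjusted p = 0.032), and Ddb2, a DNA damage binding protein, was 1.73-fold lower there and 1.68-fold lower in run 3 (adjusted p = 0.019 in run 2, edgeR's quasi-likelihood test). Cdkn2b, the inhibitor p15, was 1.60-fold higher in run 3 and 1.52-fold in run 2 (adjusted p = 0.042). Without the control plasmid P19 library 1 gene of the p53 list passed upward, and the calls of Cdkn1a, Pmaip1, Ddb2 and Cdkn2b were lost with either P19 library left out.

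For 3 other lists most members were called higher in run 3, against 23.6% of all genes, and few passed in run 2, where 9.93% of all genes did so upward. Of the NRF2 and metallothionein list 16 of 18 genes were called higher in run 3 and 4 in run 2, with 0 lower in either, and the 4 fell to 0 when the control plasmid P19 library was left out. Nqo1, a quinone reductase, was 1.87-fold higher in run 3, and in run 2 it stood at 31.0 and 28.7 against 34.6 CPM and at 22.6 and 20.4 against 26.9 CPM (adjusted p = 0.23, edgeR's quasi-likelihood test). Ribosome biogenesis genes were called higher for 20 of 30 in run 3, or 13 without the PDGF-BB libraries, and for 5 in run 2, which likewise fell to 0. Their median log2 ratio of P19 to the others was 0.33 under PDGF-BB and 0.05 in the untreated control. Bop1 and Nop58, nucleolar factors, were 1.56-fold and 1.36-fold higher in run 2 (adjusted p = 0.0078 and 0.016). Lysosome genes were called higher for 15 of 22 and lower for 1 in run 3, and for 2 of 23 and 1 in run 2, near the share over all genes. Ctsd, the protease cathepsin D, was 1.45-fold higher in run 3 and 1.28-fold in run 2 (adjusted p = 0.048). Gpnmb, a lysosomal and surface glycoprotein, stood at 14.5, 12.4 and 11.8 against 23.4 CPM in the untreated control, and was 2.94-fold higher in run 3 and 1.72-fold in run 2 (adjusted p = 0.018, edgeR's quasi-likelihood test). The run 2 calls of Nop58, Bop1, Ctsd and Gpnmb were lost without the control plasmid P19 library (adjusted p from 0.18 for Bop1 to 0.50 for Ctsd), and those of Nop58, Ctsd and Gpnmb without that of the CASC15 plasmid too.

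**Figure D4:**
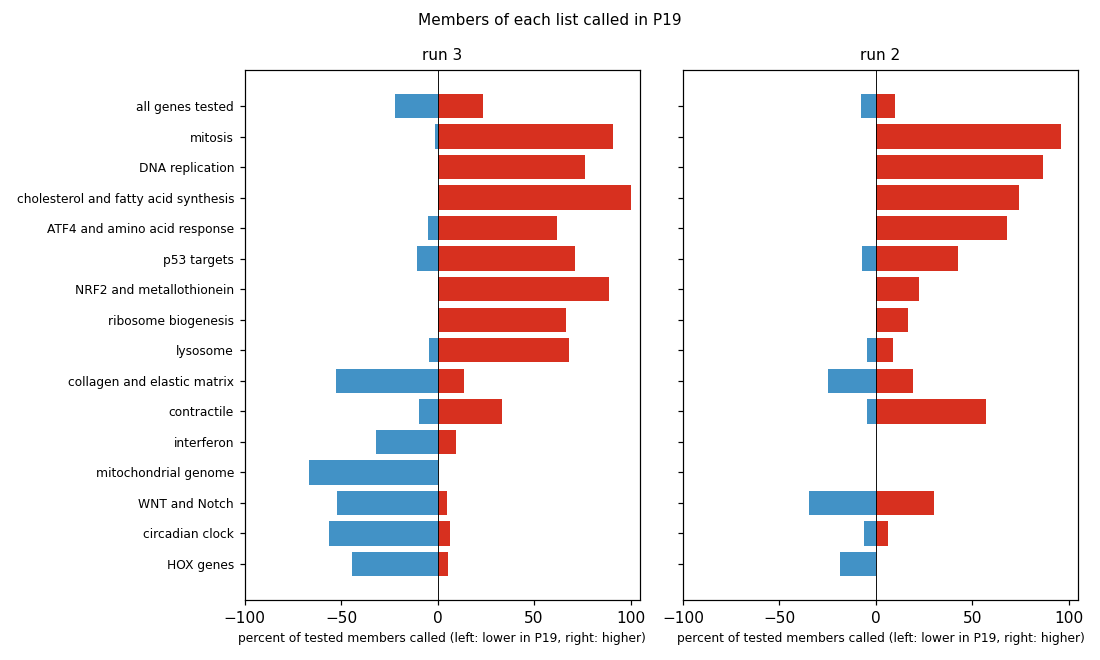
Percent of the tested genes of each list called higher (red, to the right) and lower (blue, to the left) in P19, in run 3 (left panel, 5 against 15 libraries) and run 2 (right panel, 2 against 4 libraries), with all genes tested in the top row. Mitosis, DNA replication, sterol synthesis and ATF4 genes are mostly higher in both panels, and the interferon and mitochondrial genome lists have lower calls in run 3 and 0 calls in run 2.

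Rgs5, Pdgfra and Pdgfrb were lower in P19. The IGF and PDGF list, which holds both receptors, was called higher for 2 and lower for 4 of 12 genes in run 3. In run 2 it was higher for 3 and lower for 2 of 12. Over all genes 23.6% were called higher and 22.1% lower in run 3, and 9.93% and 7.58% in run 2. Rgs5, a regulator of G protein signalling known from pericytes and smooth muscle, was 5.19-fold lower in run 3. It stood at 6.93, 8.99 and 6.68 CPM in the untreated control and at 0.779 CPM in P19, and with the long knockdown at 86.7, 37.2 and 28.5 against 11.5 CPM. In run 2 it stood at 39.1 and 50.2 against 16.95 CPM and at 128 and 179 against 38.5 CPM, a 3.26-fold decrease (log2 -1.71, SE 0.21, adjusted p = 0.001 by edgeR's quasi-likelihood test). Pdgfra, a PDGF receptor, stood at 13.8, 18.5 and 21.1 against 7.18 CPM in the untreated control and at 65.7, 61.2 and 50.8 against 11.99 CPM with the long knockdown. In run 2 it stood at 30.9 and 23.6 against 7.94 CPM and at 43.9 and 49.2 against 12.8 CPM, and fell 3.54-fold (adjusted p = 7.44e-05). Pdgfrb, the main receptor for PDGF-BB in smooth muscle, was 1.51-fold lower in both runs (adjusted p = 0.0035 in run 2, edgeR's quasi-likelihood test, and 0.097 without the control plasmid P19 library). P19 was below every other library of its condition for all 3 genes in both runs. Over all genes tested in run 3 P19 was lowest in all 5 conditions for 11%, but Rgs5 and Pdgfra were named by a rule that asked for 4 or more such conditions, so nothing is read from this. Pdgfra is 1 of 8 fibroblast markers, of which 3 were called lower and 1 higher of 6 tested in run 3 and 4 lower and 0 higher of 7 in run 2. Their summed level was 847 to 1824 CPM in the P19 libraries of run 3 against 928 to 2274 CPM in the others, and 1651 to 1752 against 997 to 1950 CPM in run 2. The ranges overlapped, but most of the sum was Dcn, the proteoglycan decorin, at 563 to 2180 CPM in run 3, so it says little of the other markers. Ly6a, a surface antigen, stood at 19.5, 16.4 and 19.3 against 83.8 CPM with the long knockdown.

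Fmo1, a flavin monooxygenase, stood at 19.8 and 16.1 against 3.80 CPM with the control plasmid and at 12.2 and 7.90 against 0.779 CPM with the CASC15 plasmid, and fell 6.71-fold in run 2 (adjusted p = 0.00083, edgeR's quasi-likelihood test) after being 3.73-fold lower in run 3. Sned1, a matrix glycoprotein, stood at 42.7 and 35.5 against 4.20 CPM and at 29.6 and 24.6 against 2.60 CPM, and fell 9.81-fold (adjusted p = 0.00012). Pi15, a secreted protease inhibitor, fell by 3.63 on the log2 scale and Gas7, an actin-binding adaptor, 4.65-fold in run 2 (adjusted p = 0.00049 and 0.0077). Wnt5b, a WNT ligand, fell by 2.06 on the log2 scale, Flrt1, an adhesion protein, 3.08-fold, Pgr, the progesterone receptor, 2.47-fold, and Rapgefl1, an exchange factor for Rap GTPases, 2.29-fold (adjusted p = 0.017, 0.047, 0.016 and 0.011, edgeR's quasi-likelihood test). The calls of Gas7, Wnt5b, Flrt1, Pgr and Rapgefl1 were lost without the control plasmid P19 library. Those of Flrt1, Pgr and Rapgefl1 were lost without that of the CASC15 plasmid too. The calls of Rgs5, Pdgfra, Fmo1, Sned1 and Pi15 were kept with either P19 library left out. Pi15, Pgr and Rapgefl1 were named because they were called in both runs, so their run 2 values are a description.

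Of the collagen and elastic matrix list 19 of 36 genes were called lower and 5 higher in run 3, and 9 lower and 7 higher in run 2. Over all genes 22.1% were called lower in run 3, and 7.58% lower and 9.93% higher in run 2. Without the control plasmid P19 library 4 genes of the list passed downward and 3 upward. The list as a whole had a median of -0.33 in run 3 and -0.02 in run 2. The list's mean log2 level was still lowest in P19 in both plasmid groups, at differences of -0.29 and -0.14 from the mean of the others, with 18 of 36 genes higher in P19. Some members fell in run 2 and were lower in run 3. Col15a1, a basement membrane collagen, stood at 6.35 and 13.3 against 0.850 CPM and at 4.84 and 4.73 against 0.416 CPM in run 2, an 11.4-fold decrease (adjusted p = 0.0011, edgeR's quasi-likelihood test), and was 2.59-fold lower in run 3. Eln, elastin, fell 3.38-fold and Thbs2, thrombospondin-2, 3.33-fold in run 2 (adjusted p = 0.0056 and 0.0011), and Lum, the proteoglycan lumican of another list, by 3.60 on the log2 scale (adjusted p = 0.0035). Without the control plasmid P19 library Eln and Lum did not pass (adjusted p = 0.17 and 0.084, edgeR's quasi-likelihood test). Eln, Thbs2 and Lum were at most 6.78 CPM in any library of run 3.

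Other lists with many lower calls in run 3, where 22.1% of all genes were called lower, were those of the mitochondrial genome, with 10 of 15 genes lower and 0 higher, the circadian clock, with 9 of 16 lower and 1 higher, and HOX genes, with 8 of 18 lower and 1 higher. In run 2 the calls were 0 of 15, 1 lower and 1 higher of 16, and 3 lower of 16 with 0 higher, beside 7.58% lower and 9.93% higher over all genes. The 3 HOX calls fell to 0 when the control plasmid P19 library was left out. MHC class I and complement genes were lower for 9 of 20 and higher for 1 in run 3, with 0 called in run 2. WNT and Notch genes were lower for 11 of 21 and higher for 1 in run 3, and lower for 8 and higher for 7 of 23 in run 2. With the control plasmid P19 library left out 4 passed downward, and without that of the CASC15 plasmid 1 passed upward. Whether the runs differ in these lists was not tested. Per2, a clock repressor, was 1.72-fold lower in run 3 and stood at 29.0 and 40.2 against 43.7 CPM and at 34.7 and 30.6 against 43.6 CPM in run 2, where P19 was the highest library. Of the largest decreases in run 3, C4b, a complement component, Lgals4, a galectin, Rgs11, another regulator of G protein signalling, Amt, of the glycine cleavage system, and Gpr162, an orphan receptor, did not pass in run 2, with adjusted p from 0.091 for Lgals4 to 0.83 for Rgs11 (edgeR's quasi-likelihood test). C4b stood at 113, 117 and 106 against 35.9 CPM in the untreated control and at 30.7, 34.5 and 32.3 against 4.99 CPM under PDGF-BB. In run 2 it stood at 32.0 and 96.0 against 63.2 CPM with the control plasmid, where P19 lay between the others, and at 330 and 673 against 140 CPM with the CASC15 plasmid, where P19 was lowest as in run 3.

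Some genes differed in opposite directions in the runs. Hey2, a transcriptional repressor downstream of Notch, was lowest in P19 in 4 conditions of run 3, at 5.75, 4.28 and 4.49 against 3.83 CPM in the untreated control. In run 2 it stood at 1.76 and 1.98 against 32.4 CPM with the control plasmid and at 0.599 and 0.778 against 11.02 CPM with the CASC15 plasmid, a 16.8-fold increase (log2 4.07, SE 0.19, adjusted p = 8.22e-06 by edgeR's quasi-likelihood test). Itga8, an integrin of smooth muscle, was lower in run 3, at 1.87 CPM or less throughout, and 2.88-fold higher in run 2 (adjusted p = 0.0019, and 0.073 without the control plasmid P19 library).

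The interferon list had 13 of 41 genes called lower and 4 higher in run 3, against 22.1% lower and 23.6% higher over all genes, and its P19 difference varied with the condition. Its median log2 ratio of P19 to the others was -0.36, -0.34 and -0.48 in the untreated, angiotensin II and PDGF-BB controls and 0.09 in both knockdown conditions, where P19 was highest for 20 and 16 of 41 genes. In run 2 the medians were 0.59 with the control plasmid and 0.02 with the CASC15 plasmid, and 0 of 45 genes were called (edgeR's quasi-likelihood test). With no filter on low counts 19 were called higher there, with DESeq2 2, and against P18 alone the median was -0.01. Oas2, an antiviral enzyme, stood at 8.19, 6.44 and 6.23 against 3.01 CPM in the untreated control of run 3 and at 0.599 CPM or less in every knockdown library. The plasmid libraries stood at 67.0 and 307 against 208 CPM with the control plasmid and at 198 and 201 against 222 CPM with the CASC15 plasmid.

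Contractile genes of smooth muscle were called higher for 7 and lower for 2 of 21 in run 3 and higher for 12 and lower for 1 of 21 in run 2. Over all genes 23.6% were called higher in run 3 and 9.93% in run 2, and the list's median in run 3 was -0.02. The 12 fell to 5 when the control plasmid P19 library was left out. Acta2, smooth muscle alpha-actin, stood at 126 and 165 against 441 CPM with the control plasmid and at 181 and 198 against 383 CPM with the CASC15 plasmid (2.49-fold, adjusted p = 0.00029, edgeR's quasi-likelihood test). In run 3 it was not called, at 194, 211 and 220 against 223 CPM in the untreated control and 108, 121 and 116 against 96.5 CPM under PDGF-BB. With the long knockdown P19 was highest, at 216, 172 and 160 against 260 CPM untreated and 208, 178 and 181 against 268 CPM with angiotensin II. The run 3 difference of Acta2, log2 0.22, was not called, and with RLE size factors it was 0.23 and was called; without the PDGF-BB libraries it was 0.33 and was called. Mylk, myosin light chain kinase, was 2.61-fold higher in run 3 and 4.66-fold in run 2 (adjusted p = 0.0077, and 0.16 without the control plasmid P19 library). Igfbp2, which binds insulin-like growth factors, rose by log2 2.62 in run 2 (SE 0.24, adjusted p = 0.00015) and was 3.37-fold higher in run 3.

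The P19 difference depended on the condition. Its size under PDGF-BB differed from that in control cells without PDGF-BB for 109 of 15103 genes (0.722%), smaller or more negative for 92 and larger for 17; this interaction rests on 1 P19 library with PDGF-BB, whose spread is taken to be that of the other groups. The batch was picked on run 3 levels of mitosis genes, so for these the interactions are a description. With the replicate number as a block, which removes what same-numbered libraries share, 203 genes passed. Without the P19 library of the untreated control 56 passed, and without that of the untreated knockdown 72. Of the 92, 33 were mitosis genes, whose mean level was highest with PDGF-BB in every batch; the 33 became 12 without the P19 library of the untreated control and at most 45 with other libraries left out. As a description, Aspm, Cenpf, Kif4 and Spc25, of the spindle and kinetochore, had interactions of -1.41, -1.47, -1.36 and -1.35 on the log2 scale. A further 14 were sterol and fatty acid genes, 23 with the replicate block, 8 without the P19 library of the angiotensin II control and up to 26 in other settings, and 0 of that list had a positive interaction that passed. For Fdps the interaction was -0.86 (SE 0.17, adjusted p = 0.03) and for Nsdhl, a sterol dehydrogenase, -0.85 (SE 0.13, adjusted p = 0.0015 by edgeR's quasi-likelihood test), so the P19 difference was smaller with PDGF-BB. Cyp51, Sqle, Mvd and Acat2 had interactions of -0.68, -0.56, -0.67 and -0.68 (adjusted p = 0.002, 0.0052, 0.042 and 0.01). P19 still lay above P16 to P18 with PDGF-BB for each of them, as for Fdps at 251, 227 and 246 against 366 CPM. Fdps and Mvd missed the threshold without the P19 library of the untreated control (adjusted p = 0.051 and 0.081) or of the angiotensin II control (adjusted p = 0.12 and 0.14, edgeR's quasi-likelihood test).

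Genes with the opposite interaction were Gfod1, an oxidoreductase domain protein, at 18.3, 18.3 and 17.96 against 35.4 CPM with PDGF-BB and 17.1, 16.03 and 15.9 against 15.7 CPM untreated (0.94, SE 0.15, adjusted p = 0.0015 by edgeR's quasi-likelihood test). Calcrl, the calcitonin receptor-like receptor, was lowest in P19 in 4 conditions and highest with PDGF-BB, at 10.9, 9.40 and 8.85 against 13.8 CPM (1.25, SE 0.23, adjusted p = 0.0043). Agpat5, an acyltransferase of phospholipid synthesis, had an interaction of 0.73 (adjusted p = 0.002), Aars2, the mitochondrial alanyl-tRNA synthetase, 0.84 (adjusted p = 0.04), and Dctd, dCMP deaminase, 0.65 (adjusted p = 0.042). Gbp6, a guanylate-binding protein, had an interaction of -1.65 (SE 0.41, adjusted p = 0.047), at 2.92, 3.03 and 2.85 against 0.458 CPM with PDGF-BB. Without the P19 library of the untreated control the calls of Calcrl, Aars2, Dctd and Gbp6 were lost (adjusted p = 0.15, 0.26, 0.38 and 0.13), and without that of the angiotensin II control those of Agpat5, Aars2, Dctd and Gbp6 (adjusted p = 0.05, 0.14, 0.12 and 0.054, edgeR's quasi-likelihood test). Aars2, Dctd and Gbp6 were also lost without several P16 to P18 libraries.

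With the long knockdown the P19 difference was another size for 950 genes (6.29%), larger or more positive for 622 and smaller or more negative for 328 (edgeR's quasi-likelihood test). With each of the 4 P19 libraries that enter it left out in turn the count was 320 to 467. The mitosis list, on which the batch was picked, held 42 positive interactions and 1 negative one with a median of 0.99, given as a description; the 42 became 22 without the P19 library of the untreated knockdown. The sterol list held 16 positive interactions and 1 negative one, with a median of 0.14. Idi1 had an interaction of 1.05, Sqle one of 0.91, and Srebf2 and Cyp51 0.75 each (adjusted p = 7.71e-06, 1.19e-07, 1.74e-07 and 7.11e-06, edgeR's quasi-likelihood test). Put the other way, the knockdown lowered Idi1 by log2 differences of -2.02, -2.01 and -1.99 in P16, P17 and P18 and of -0.96 in P19. For Mki67 the values were -3.44, -2.89 and -2.79 against -0.81.

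Other knockdown differences were smaller in P19 than in P16 to P18, and those of Cd36, Sema3e and, by little, Igfbp3 changed sign. Sema3e had 1.10, 1.47 and 1.16 in P16 to P18 and -0.40 in P19. Agpat5 rose with the knockdown by 1.87, 1.79 and 1.64 in P16 to P18 and by 0.31 in P19, from 238, 244 and 230 CPM in P16 to P18 to 62.8 CPM in P19 with the knockdown (interaction -1.47, SE 0.10, adjusted p = 7.99e-11 by edgeR's quasi-likelihood test). Cd36, a scavenger receptor that takes up fatty acids, had differences of -1.33, -1.42 and -1.13 and then 1.64, at 0.887, 0.723 and 1.41 against 12.6 CPM with the knockdown (interaction 3.03, SE 0.30, adjusted p = 1.53e-07). Igfbp3, another binder of insulin-like growth factors, had differences of -0.83, -0.82 and -0.82 and 0.06 in P19 (interaction 0.89, SE 0.08, adjusted p = 1.16e-07). Abca1, the cholesterol exporter that LXR induces, rose on the log2 scale by 3.01, 3.14 and 2.56 in P16 to P18 and by 1.08 in P19. It stood at 18.8, 19.03 and 21.6 against 6.69 CPM with the knockdown and at 1.97, 1.79 and 4.24 against 3.52 CPM in the control (interaction -1.82, SE 0.30, adjusted p = 0.00024). The interactions of Gas7 and Sned1 were -1.20 each (adjusted p = 0.0085 and 0.024) and that of Ccnd1 was 0.98 (adjusted p = 6.5e-05). The calls of Gas7 and Sned1 were lost without some of the P19 libraries, with adjusted p of up to 0.13 and 0.20 (edgeR's quasi-likelihood test).

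**Figure D5:**
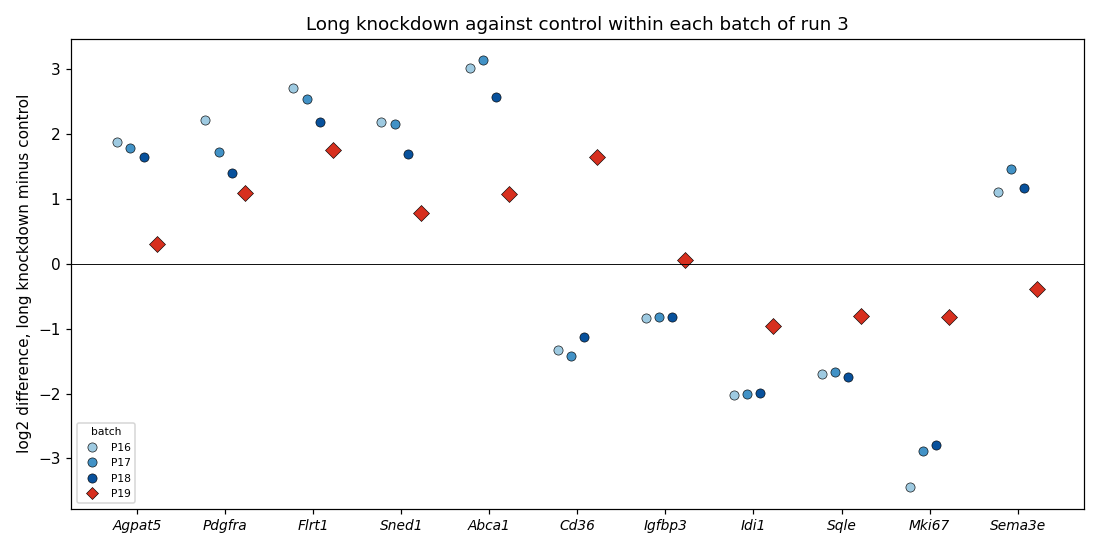
Log2 difference of the long knockdown from the control within each batch of run 3, averaged over untreated and angiotensin II libraries, for 11 genes chosen after their values were seen; P16 to P18 are blue circles and P19 a red diamond. P19 lies nearer 0 than the others for Agpat5, Idi1, Sqle and Mki67, and on the other side of 0 for Cd36, Sema3e and, at 0.06, Igfbp3.

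The same was counted over all genes, with genes taken from P16 and P17 alone so that neither P18 nor P19 chose them. Of genes at least 2-fold lower with the knockdown there, 760 in number, the median decrease was 2.43-fold in P18 and 1.58-fold in P19, and 83.03% were nearer 0 in P19 than in P18. Of the 543 genes at least 2-fold higher the medians were 2.25-fold and 1.89-fold, and 67.4% were nearer 0 in P19. Outside the cell cycle lists the lower genes numbered 661, with medians of 2.34-fold and 1.55-fold. For PDGF-BB the 747 higher genes had medians of 3.08-fold in P18 and 3.19-fold in P19, with 56.8% nearer 0 in P19. The 571 lower ones had 2.31-fold and 2.64-fold, with 37.8% nearer 0. Of the higher genes 505 lay outside the cell cycle lists, with medians of 2.45-fold and 2.54-fold, and 48.1% of them were nearer 0 in P19. The gene-level count of 2610307P16Rik was also lowered least in P19, by -0.59 as given above, and the part of this in the smaller differences was not tested. This count was added after the data were seen and carries no test.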

How the data were processed

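Expected counts per gene of 30 libraries, from paired 75-bp reads, were deposited by the authors as a merged RSEM table. STAR 2.7.11b, RSEM 1.3.1 and the builds GRCm39 and mm10 are named per the submitters' processing notes, which do not say which build made the table. The counts were rounded to whole numbers, and CPM values use TMM library sizes. Genes were filtered with filterByExpr (a count of at least 10, a total of at least 15) and fitted by run in edgeR 4.0.16 (R 4.3.3) with condition and P19 as terms, robust quasi-likelihood tests and Benjamini-Hochberg adjustment. Called means an adjusted p under 0.05. DESeq2 1.42.0 and limma 3.58.1 served for alternatives. The scripts were tested on simulated data. Depth limits genes near 3 counts, the floor used here.

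The members and gene lists were chosen with earlier results of these data known. Genes were named by a rule: a fixed set, the 12 largest called differences each way in run 3 and up to 10 in both runs, outside the cell cycle lists and at 5 CPM or more, the 5 largest interactions each way, and the leading members of lists; others are said to be added or were added after values were seen. The labels give same-numbered libraries a shared batch. After group means were removed, same-batch libraries correlated at 0.20 in run 3 and others at -0.06, and at 0.54 and -0.26 in the plasmid groups of run 2. Promoters came from the RefSeq table of GRCm38.p6, matched by symbol. Results for some genes are not reported here.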

Additional observations from a re-analysis of the deposited data

Results flagged for a closer look

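Of 90 sets of 4 same-condition libraries of run 3 that were examined for a library standing apart, 18 had one, and all 18 were P19. P19 was picked for its run 3 levels of mitosis genes, so this is a description and not a finding about the batch. The gap to the nearest library was in each of them a larger share of the range than chance gives in about 1 of 20 groups. That share was 0.8821 for the mitosis list with the long knockdown and 0.8391 for DNA replication with PDGF-BB. For sterol and fatty acid synthesis it was 0.8622 in the untreated control, 0.8826 with angiotensin II, 0.9618 with the long knockdown and 0.9824 with the long knockdown and angiotensin II. The ATF4 list had 0.8525 with PDGF-BB and 0.958 with the knockdown and angiotensin II, and p53 targets had 0.887 untreated and 0.8331 with angiotensin II. Ribosome biogenesis and lysosome genes had 0.9195 and 0.8425 with the untreated knockdown. The collagen list had 0.8958 in the untreated control, WNT and Notch genes 0.8622 with angiotensin II, and HOX genes 0.8479 with PDGF-BB. The mitochondrial share of counts had 0.8768 untreated, 0.8573 with angiotensin II and 0.8792 with the knockdown.

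The P19 difference also changed with the condition, by an interaction term of edgeR's quasi-likelihood fit on the log2 scale. With PDGF-BB the term was 0.9366 for Gfod1, 1.249 for Calcrl, 0.7301 for Agpat5, 0.8386 for Aars2 and 0.6512 for Dctd. It was -1.654 for Gbp6, and -1.414, -1.47, -1.363 and -1.346 for the mitosis genes Aspm, Cenpf, Kif4 and Spc25. Sterol genes had -0.6797 for Cyp51, -0.8524 for Nsdhl, -0.5577 for Sqle, -0.8582 for Fdps, -0.6704 for Mvd and -0.6829 for Acat2. With the long knockdown the term was -1.471 for Agpat5, -1.82 for Abca1, -1.196 for Gas7 and -1.197 for Sned1. It was 3.03 for Cd36, 0.8885 for Igfbp3 and 0.9808 for Ccnd1, and for sterol genes 1.052 for Idi1, 0.9075 for Sqle, 0.7532 for Srebf2 and 0.7505 for Cyp51.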

How the results depend on the processing

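The count of genes called for P19 in run 3, 6915, was 579 with a log2 difference of at least 1, 3341 with the mitosis score as a covariate, and 5980 to 6950 with libraries or a batch left out. In run 2 the 2688 became 1020, 37 and 462 to 2652. Genes called in both runs, 1510, became 175 and 555 with the log2 limit in run 3 and in run 2, 699 and 6 with the mitosis covariate in run 3 and in run 2, 2439 at an unadjusted p in run 2, and 301 to 1561 with libraries left out. The PDGF-BB interaction, 109 genes, became 37 with the log2 limit, 180 with DESeq2, 199 when genes had to average 1 CPM or more, 271 when no gene was filtered out, and 56 to 159 with libraries left out; it could not be estimated without its 1 P19 library. The long knockdown interaction, 950 genes, became 191 with the log2 limit and 320 to 1052. Without the P19 libraries 118 genes were called for P16 and 173 for P18, in an alternative chosen after seeing the data. The batch as a random block in limma, also chosen after seeing the data, left 6908 genes in run 3 and 2056 in run 2. The correlation within batches, with P19 in the fit, was estimated at 0.0012 in run 3 and 0.22 in run 2. In run 3 the block thus changed little, so 6908 is not a count freed of dependence within batches. With the replicate block the PDGF-BB interaction had 203 genes and the long knockdown one 1240. P19 against the rest lies between replicate numbers, so no such block can be fitted to it. Where the reasons for these changes are not part of the alternative itself, the cause was not tested.

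Signs turned for few of the named genes that were called in the main fit. With the mitosis covariate the run 3 differences of Mki67, Ccnb1 and Cdc20 were -0.2978, -0.1382 and -0.03084. In the PDGF-BB libraries alone those of Mki67, Ccnb1, Cdc20 and Plk1 were -0.124, -0.01833, -0.01731 and -0.0312. In run 2 the mitosis covariate gave -1.578 for Mki67, -1.063 for Cdc6, -1.984 for Ccnd1, -2.62 for Mmp13, -0.2281 for Bop1, -2.0 for E2f8, 1.208 for Flrt1, 0.3161 for Gas7 and 0.9838 for Wnt5b. Of 2559 other values of 80 named genes in run 3, 2460 were counted as unchanged. So were 971 of 1119 in run 2, 329 of 400 for PDGF-BB and 279 of 286 for the knockdown. A gene called in neither fit was counted as unchanged whatever its sign. In run 2 Fasn went from log2 0.10 to -0.23 without the P19 library of the CASC15 plasmid. Rgs11 went from -0.18 to 0.27 without that of the control plasmid. In the PDGF-BB libraries alone, unchanged means a shift smaller than the spread of P16 to P18.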
